A study of Mus musculus with 8 samples.

Results

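Beta cell disallowed genes are genes that most tissues express and that the mature beta cell keeps low. The 7 described here, Ldha, Slc16a1, Hk1, Rest, Pdgfra, Oat and Acot7, were chosen by name, and all 7 of 7 had a row in a table of 15985 gene symbols and passed the filter on low values, as did 15960 genes in all. Their RNA was measured by bulk RNA sequencing of isolated pancreatic islets from 8 mice. The 4 KO mice were Ins-Cre;Sox9fl/fl, in which Cre recombinase under an insulin promoter removes exons of the floxed Sox9 gene from insulin-producing cells during embryonic life. Controls 1 to 4, labelled WT, had the genotypes Sox9fl/fl (control 1), Sox9fl/+ (control 2), Sox9+/+ (control 3) and Sox9+/fl (control 4), so that 3 of them carried a floxed allele and 0 carried Cre. All mice were 13 to 16 months old and of a strain labelled Mixed. Per the study's methods, the RNA sequencing used males. The effects of Cre and of Sox9 loss cannot be told apart in this design, and other islet cells keep their Sox9. The comparison asked whether islets of KO mice express the disallowed genes at another level than islets of controls.

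The beta cell senses glucose by burning it. Glucose is phosphorylated and its carbon is led into the mitochondria, so that ATP follows the blood glucose and triggers insulin release. A hexokinase of high affinity, lactate dehydrogenase A and a lactate and pyruvate transporter of the plasma membrane would each disturb this coupling, the last by letting lactate or pyruvate from the blood trigger insulin release during exercise. A transcriptional repressor of neuronal genes and a growth factor receptor of mesenchyme belong to the same class because beta cells use many neuronal genes and divide little. In whole islets, RNA of these genes comes from any cell in the preparation, and a change in the number of cells of a type and in the RNA per cell cannot be told apart.

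Libraries held 11.0 to 19.1 M estimated reads in KO and 13.1 to 26.2 M in control islets. A normalized value is the estimated reads of a gene divided by a size factor of the library, so that 1 read was worth a value between 0.658 and 1.37. Ins2, an insulin gene, took between 20.5% and 28.6% of the normalized reads of each library, and the 16 beta cell identity genes had a median level above that of 97.6% of genes, so that the defining markers of the labelled tissue were present. Sox9 itself had values of 36.6, 16.4, 20.6 and 11.7 in KO 1 to 4, against 23.3, 37.3, 13.4 and 13.3 in controls 1 to 4 (log2 fold change -0.02, limma adjusted p = 0.99). Its level did not separate the groups and therefore does not check the labels, and KO below means the libraries labelled so.

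A promoter of Ldha and that of Slc16a1 are shown first, because these genes stand for the lactate pathway. They were the members with a promoter that held a CACGTG motif. RefSeq (GRCm38.p6) gave 8 promoters for 6 of the 7 members, all but Rest, and the 250 bases before each start site were searched on both strands. Capitals mark ACGTG, or CACGT on the other strand, a form of the core of the element that hypoxia-inducible factors bind. Other forms of that core were not searched. Both sequences run in the direction of the gene and end at the base before the start site.
Ldha, chr7:46845554-46845803, plus strand: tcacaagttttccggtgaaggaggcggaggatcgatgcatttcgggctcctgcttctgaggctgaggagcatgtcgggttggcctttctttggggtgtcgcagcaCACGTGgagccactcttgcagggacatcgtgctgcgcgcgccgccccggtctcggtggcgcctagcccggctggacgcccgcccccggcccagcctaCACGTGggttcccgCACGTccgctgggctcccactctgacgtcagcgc
Slc16a1, chr3:104638414-104638663, plus strand: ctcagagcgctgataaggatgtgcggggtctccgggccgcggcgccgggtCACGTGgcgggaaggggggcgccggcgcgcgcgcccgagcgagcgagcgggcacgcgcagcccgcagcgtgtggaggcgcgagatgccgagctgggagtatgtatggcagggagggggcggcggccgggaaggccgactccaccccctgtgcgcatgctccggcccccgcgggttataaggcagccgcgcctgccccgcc
In the Ldha promoter shown, the core letters stood at 3 separate places, which begin 145, 48 and 34 bases before the start site. In Slc16a1 they stood at 1 place that begins 200 bases before the start site. At 145 and 48 bases in Ldha and at 200 bases in Slc16a1 they form the palindrome CACGTG, an E-box, which contains ACGTG on both strands. Of all 32841 promoters of this length, 16.6% held ACGTG and 6.02% held CACGTG. The SOX core ACAAT was in 0 of the 8 promoters of members and in 27.7% of all promoters, and the GC box GGGCGG was in those of Acot7, Ldha and Slc16a1 and in 32.7% of all. A match of letters is a description and not a binding site.

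The 7 genes were present in every library, and their levels covered a wide range. To compare genes, values were divided by the length of the principal transcript in kilobases, and each level was placed among 15919 genes with a known length. Oat and Ldha stood at percentiles 56.4 and 55.3 and Acot7 at 48.9. Rest (23.3), Slc16a1 (22.8) and Hk1 (17.97) lay lower, and Pdgfra lay lowest, at 7.86. In all, 5 of the 7 were below the median gene, whose level was 59.5 per kilobase. None of the 7 was at 0 in any library, but Pdgfra was low, with 7.67 estimated reads in control 3.

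In order, the mean levels per kilobase over the 8 libraries were 78.4 ± 17.6 for Oat, 74.7 ± 19.2 for Ldha, 56.7 ± 13.3 for Acot7, 12.7 ± 2.79 for Rest, 12.2 ± 2.77 for Slc16a1, 8.39 ± 1.11 for Hk1 and 3.24 ± 1.78 for Pdgfra (SD, n = 8). Oat and Ldha could not be ordered, since Oat was the higher in 3 of 8 libraries, and neither could Rest and Slc16a1, since Rest was the higher in 5 of 8. Ldha was above Acot7 in 6 of 8 libraries. Acot7 was above Rest, Slc16a1 above Hk1 and Hk1 above Pdgfra in 8 of 8. The place of Hk1 depends on its length: it has 18 coding transcripts, and with their median length its level was 55.6 per kilobase, at percentile 41.9, and Ldha was above Oat (165 and 136 per kilobase).

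**Figure D1:**
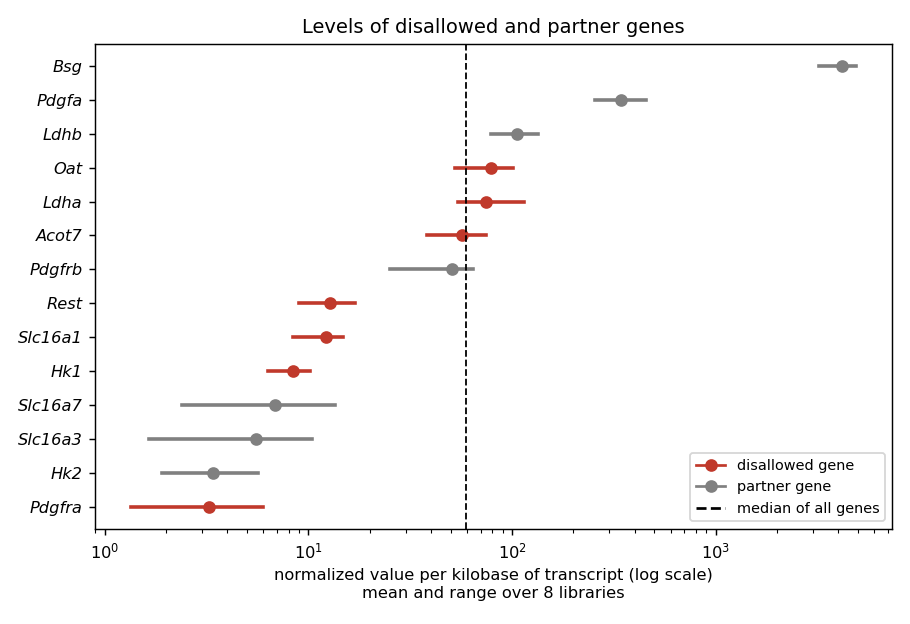
Normalized value per kilobase of principal transcript on a log axis for the 7 disallowed genes (red) and 7 partner genes (grey), as the mean (point) and the range (line) over 8 libraries, with the median of all genes dashed (59.5). Pdgfra, Hk1, Slc16a1 and Rest lie below the median gene in each library, whereas Bsg lies far above it.

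Between the groups, 0 of the 7 genes passed the test across all genes (limma on log2 of the value plus 0.5, Benjamini-Hochberg adjusted p below 0.05), where 9 of 15960 genes or 0.0564% did (0.0376% higher and 0.0188% lower in KO). The adjusted p-values of the 7 lay between 0.813 and 0.998. At an unadjusted p below 0.05 the count was also 0 of 7, against 10.7% of all genes. The ranges of the KO and control libraries overlapped for 7 of 7, whereas 6.35% of all genes had no overlap. The log2 fold change, KO minus control, was positive for 3 genes and negative for 4, with a median of -0.12, beside a median of -0.03 and quartiles of -0.19 and 0.16 over all genes tested. The median of the 7 was 0.03 without control 2, -0.00070 without KO 2 and -0.0040 when the acinar score was fitted too, so its sign is not stable. The 95% interval of the fold ended below 1.5-fold higher for 6 of the 7, with Pdgfra the exception, and above a fold of 0.5 for 7 of 7. A failed test does not show equal levels, and these intervals give the sizes that the 8 libraries still allow.

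**Figure D2:**
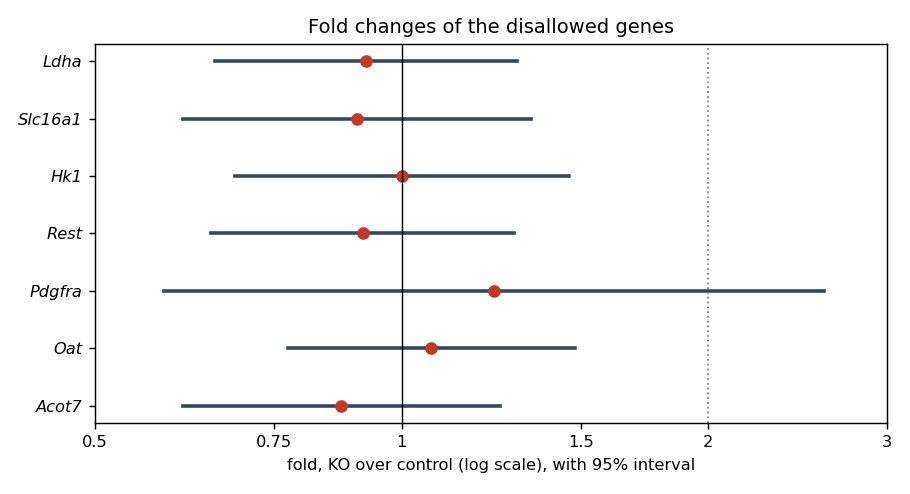
Fold of KO over control islets on a log axis for each disallowed gene, as the limma estimate (point) with its 95% interval (line), with dotted lines at 0.5 and 2. Each interval crosses 1, the estimates lie between 0.873 (Acot7) and 1.23 (Pdgfra), and that of Pdgfra alone reaches beyond 2.

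Ldha, which makes the lactate dehydrogenase subunit that favours the reduction of pyruvate to lactate, was neither higher nor lower beyond the spread. It (ENSMUSG00000063229, chr7:46841475-46855627, plus strand, GRCm38) had values of 134, 97.1, 149 and 119 in KO 1 to 4, against 131, 203, 125 and 96.2 in controls 1 to 4. Control 2 was the highest and control 4 the lowest of the 8. The means were 125 ± 22.2 in KO and 139 ± 45.4 in control islets (SD, n = 4 each), a fold of 0.923 with a 95% interval of 0.656 to 1.30 (log2 -0.12, SE 0.23, limma adjusted p = 0.893). The sign rests on control 2, without which the log2 fold change was 0.08. Ldha reads are also the least certain of the 7: 35.1% of the 31-base words of its transcript occur in 27 other annotated genes, of which 2 had a row, Gm5987 with means of 5.27 in KO and 5.04 in control islets and Gm13315 with 6.59 in KO and 6.23 in control islets. The authors' pseudoalignment divides such reads between genes. For the other 6 members the share was at most 1.27% (Oat).

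Ldhb, the subunit that favours the reverse reaction, was about as abundant as Ldha. The ratio of Ldhb to Ldha per kilobase was 1.49 ± 0.613 in KO and 1.52 ± 0.573 in control islets (exact two-sided permutation p = 1 and adjusted p = 1 over 8 ratios of partners). In KO 2 and control 4 it was above 2, at 2.38 and 2.17, and in control 2 it was lowest, at 0.967. With median transcript lengths its mean over the 8 libraries was 1.01, so that the order of these subunits depends on the length chosen.

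Slc16a1 encodes the monocarboxylate transporter MCT1, which carries lactate and pyruvate across the plasma membrane. It (ENSMUSG00000032902, chr3:104638668-104658462, plus strand) had values of 65.6, 42.3, 57.0 and 40.2 in KO 1 to 4, against 65.5, 65.0, 37.1 and 60.4 in controls 1 to 4. Controls 1, 2 and 4 lay close together, and control 3 was the lowest of all 8. The means were 51.3 ± 12.1 in KO and 57.0 ± 13.5 in control islets (SD, n = 4 each), a fold of 0.905 with an interval of 0.611 to 1.34 (log2 -0.14, SE 0.26, limma adjusted p = 0.884). Leaving out single libraries moved it between -0.34 (without control 3, adjusted p = 0.722) and -0.037 (without KO 4), and it was -0.062 without KO 2.

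The other monocarboxylate transporters were also scarce per kilobase, with mean levels of 5.51 for Slc16a3 and 6.88 for Slc16a7 beside 12.2 for Slc16a1. Slc16a3 (MCT4, the exporter of glycolytic cells) stood at percentile 13.1 and Slc16a7 (MCT2) at 15.7. Bsg, the chaperone that brings MCT1 to the membrane, stood at percentile 98.9, and its ratio to Slc16a1 per kilobase was 347 ± 94.6 in KO and 365 ± 106 in control islets (exact permutation p = 0.771, adjusted p = 0.947). The chaperone transcript outnumbered that of the transporter in every library, the smallest ratio being 216 in KO 1. The ratio of Slc16a1 to Slc16a3 was 3.42 ± 2.04 in KO and 2.36 ± 1.07 in control islets (exact permutation p = 0.571, adjusted p = 0.947), but with median transcript lengths it was 0.831, so that their order depends on the length chosen. Among 15 genes of lactate and pyruvate handling, 0 passed the test, 13 had a negative and 2 a positive fold change, and the median was -0.11. The smallest p was that of Pcx, the pyruvate carboxylase that refills the citric acid cycle in beta cells, with values of 217 ± 21.5 in KO and 298 ± 40.2 in control islets (log2 -0.45, SE 0.14, limma adjusted p = 0.262). Bsg (log2 -0.23, adjusted p = 0.529), Pdk4, an inhibitor kinase of pyruvate dehydrogenase (0.48, adjusted p = 0.561), and Pdhb, a subunit of that enzyme (-0.15, adjusted p = 0.645), followed.

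Hk1, the hexokinase of high affinity that most tissues use, had nearly the same mean in both groups. It (ENSMUSG00000037012, chr10:62268855-62379908, minus strand) had values of 39.2, 31.5, 35.4 and 24.3 in KO 1 to 4, against 30.5, 33.9, 31.7 and 32.1 in controls 1 to 4. The control libraries lie inside the KO range. The means were 32.6 ± 6.36 in KO and 32.1 ± 1.43 in control islets (SD, n = 4 each), a fold of 1.001 with an interval of 0.686 to 1.46 (SE 0.25 on the log2 scale, limma adjusted p = 0.998). The coefficient of variation was 19.5% in KO and 4.45% in control islets, while counting error alone gives 13.9% to 20.9% for 22.9 to 51.6 reads, so the close agreement of the controls is tighter than the depth can resolve.

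Hk2, the hexokinase of muscle and fat, was lower than Hk1, which exceeded it 3.01 ± 0.506-fold per kilobase in KO and 2.49 ± 1.09-fold in control islets (exact permutation p = 0.343, adjusted p = 0.947). Of the partner genes in the hexokinase list 4 were measured, and 0 of 4 passed the test, all with a negative fold change. Among them were G6pc2, the glucose-6-phosphatase of islets (log2 -0.52, adjusted p = 0.531), Hk2 (-0.36, adjusted p = 0.791) and Hkdc1 (-0.32, adjusted p = 0.896).

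Of 15 other glycolytic enzymes, 0 passed the test, 13 had a negative and 2 a positive fold change, and the median was -0.11, or -0.06 without control 1. The smallest p-values belonged to Pgk1, phosphoglycerate kinase (1852 ± 236 in KO and 2252 ± 290 in control islets, log2 -0.28, adjusted p = 0.458), Pfkp (-0.29, adjusted p = 0.512), Pgam1 (-0.14, adjusted p = 0.726) and Eno1 (-0.45, adjusted p = 0.758). Ldha, Slc16a1 and the glycolytic genes are known targets of hypoxia-inducible factors, and 11 other hypoxia-induced genes were examined. Again 0 passed, 8 were negative and 3 positive, and the median was -0.06, or -0.0048 without control 1. Bnip3, a mitophagy receptor, had 261, 351, 287 and 295 in KO 1 to 4, against 601, 379, 426 and 404 in controls 1 to 4 (log2 -0.58, SE 0.16, limma adjusted p = 0.202). Its groups did not overlap, and neither did those of Ndrg1 (-0.31, limma adjusted p = 0.423), beside 6.35% of all genes without overlap. Both were named for their small p, which favours such genes. Ddit4, an inhibitor of mTORC1 signalling, had a positive fold change (0.66, limma adjusted p = 0.438), as had Ankrd37 (0.24, adjusted p = 0.675).

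Rest encodes the repressor that silences neuronal genes outside the nervous system. It (ENSMUSG00000029249, chr5:77265491-77286432, plus strand) had values of 94.5, 93.7, 79.3 and 68.8 in KO 1 to 4, against 111, 119, 63.0 and 82.4 in controls 1 to 4. The KO libraries lay within the control range, whose ends were controls 2 and 3. The means were 84.1 ± 12.4 in KO and 93.9 ± 26.0 in control islets (SD, n = 4 each), a fold of 0.916 with an interval of 0.650 to 1.29 (log2 -0.13, SE 0.23, limma adjusted p = 0.883). Without control 2 the log2 fold change was 0.0019, and without control 3 it was -0.30.

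Its corepressors were far more abundant than Rest itself. The 9 measured partners had a median at percentile 83.1 per kilobase, and 0 of 9 passed the test (5 positive, 4 negative, median 0.00). Sin3a, the scaffold of a histone deacetylase complex, had 2035 ± 201 in KO and 2580 ± 459 in control islets (log2 -0.33, adjusted p = 0.41), followed by Rcor3 (0.30, adjusted p = 0.482), Ctbp1 (-0.14, adjusted p = 0.694) and Rcor2 (0.26, adjusted p = 0.725).

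Genes known to be silenced by REST in other tissues were abundant here, with a median at percentile 95.9 over 18 genes. None of the 18 passed the test (limma; 3 at an unadjusted p below 0.05, which 10.7% of all genes reached), 15 had a negative and 3 a positive fold change, and the median was -0.12. Syp, a protein of synaptic and hormone vesicles, had 704, 842, 909 and 804 in KO 1 to 4, against 1257, 983, 933 and 1126 in controls 1 to 4 (log2 -0.40, SE 0.13, limma adjusted p = 0.284). Its groups did not overlap, beside 6.35% of all genes without overlap, and Syp was named for its small p, which favours such genes. Scg2, a granin of secretory granules (log2 -0.53, adjusted p = 0.429), Vgf, a precursor of granule peptides (-0.76, adjusted p = 0.465), and Mapk8ip1, a scaffold of JNK signalling (-0.23, adjusted p = 0.511), followed. The summed value of the 18 genes was 192875 to 257688 in KO and 265183 to 377664 in control islets, of which Scg2 made the largest part. The mean log2 value of the 18 genes, each centred over the 8 libraries, weighs them equally. It was -0.20 to 0.04 in KO and -0.01 to 0.13 in control islets, and these ranges overlap.

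Pdgfra, the receptor of platelet-derived growth factor that marks fibroblasts and other mesenchymal cells, was the lowest and the most variable of the 7. It (ENSMUSG00000029231, chr5:75152292-75198215, plus strand) had values of 28.1, 40.7, 12.5 and 15.2 in KO 1 to 4, against 12.8, 38.3, 9.22 and 20.3 in controls 1 to 4. One library of each group, KO 2 and control 2, stood well above most others, and the highest exceeded the lowest 4.42-fold. The coefficients of variation, 53.8% in KO and 64.2% in control islets, were above the counting error of 13.1% to 36.1% given by 7.67 to 58.1 reads. The means were 24.1 ± 13.0 in KO and 20.1 ± 12.9 in control islets (SD, n = 4 each), a fold of 1.23 with an interval of 0.585 to 2.60 (log2 0.30, SE 0.49, limma adjusted p = 0.87). Leaving out single libraries moved the log2 fold change between 0.00 (without KO 2) and 0.67 (without control 2), and with the score of acinar markers as a covariate it was 0.93 (adjusted p = 0.624).

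Pdgfrb, the receptor of pericytes and stellate cells, was above Pdgfra in every library, with a ratio per kilobase of 20.3 ± 11.7 in KO and 18.01 ± 8.21 in control islets (exact permutation test, adjusted p = 0.947). It had 307 ± 36.3 in KO and 239 ± 74.0 in control islets (log2 0.41, SE 0.23, limma adjusted p = 0.551), and control 3 was its lowest library at 135. Among the ligands, Pdgfa stood at percentile 86.2 (log2 -0.10, adjusted p = 0.871), whereas Pdgfc was scarce (6.997 ± 7.50 in KO and 12.4 ± 3.38 in control islets, log2 -1.25, adjusted p = 0.515) and Pdgfd had 119 ± 30.6 in KO and 93.0 ± 27.5 in control islets (log2 0.37, adjusted p = 0.644). Of the 5 genes, 0 passed the test.

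Oat, ornithine aminotransferase of the mitochondrial matrix, was the most abundant of the 7 by its normalized value. It (ENSMUSG00000030934, chr7:132557478-132576398, minus strand) had values of 218, 182, 149 and 144 in KO 1 to 4, against 185, 217, 143 and 112 in controls 1 to 4. KO 1 and control 2 were about equally high, and control 4 was the lowest. The means were 173 ± 34.3 in KO and 164 ± 46.1 in control islets (SD, n = 4 each), a fold of 1.07 with an interval of 0.773 to 1.48 (log2 0.10, SE 0.21, limma adjusted p = 0.907). The sign turned without KO 1 (-0.02), without control 4 (-0.07) and with the mesenchymal score as a covariate (-0.02). Of 10 genes of ornithine, proline and arginine metabolism, 0 passed the test (4 positive, 6 negative, median -0.02). Odc1, which makes putrescine from ornithine (log2 -0.23, adjusted p = 0.755), Asl of the urea cycle (0.14, adjusted p = 0.763) and the mitochondrial arginase Arg2 (-0.47, adjusted p = 0.774) had the smallest p-values.

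Acot7, a thioesterase that frees long-chain fatty acids from coenzyme A, had the smallest p of the 7 and still did not pass the test. It (ENSMUSG00000028937, chr4:152178134-152271855, plus strand) had values of 67.2, 108, 57.2 and 88.0 in KO 1 to 4, against 67.7, 112, 84.5 and 98.8 in controls 1 to 4. KO 2 and control 2 were the highest of their groups. The means were 80.1 ± 22.6 in KO and 90.7 ± 18.9 in control islets (SD, n = 4 each), a fold of 0.873 with an interval of 0.609 to 1.25 (log2 -0.20, SE 0.24, limma p = 0.426, adjusted p = 0.813, and an exact permutation p of 0.457). Fitted together with the acinar score, the log2 fold change became 0.16 (adjusted p = 0.866). Of 13 other thioesterases and acyl-CoA synthetases, 0 passed the test (4 positive, 9 negative, median -0.10). Acot3 of peroxisomes (7.55 ± 6.13 in KO and 16.7 ± 8.34 in control islets, log2 -1.27, adjusted p = 0.466), Acsl4 (-0.25, adjusted p = 0.601), Acot11 (0.27, adjusted p = 0.614) and Acsl6 (-0.17, adjusted p = 0.646) had the smallest p-values. Acot11 had groups without overlap, as had 6.35% of all genes.

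**Figure D3:**
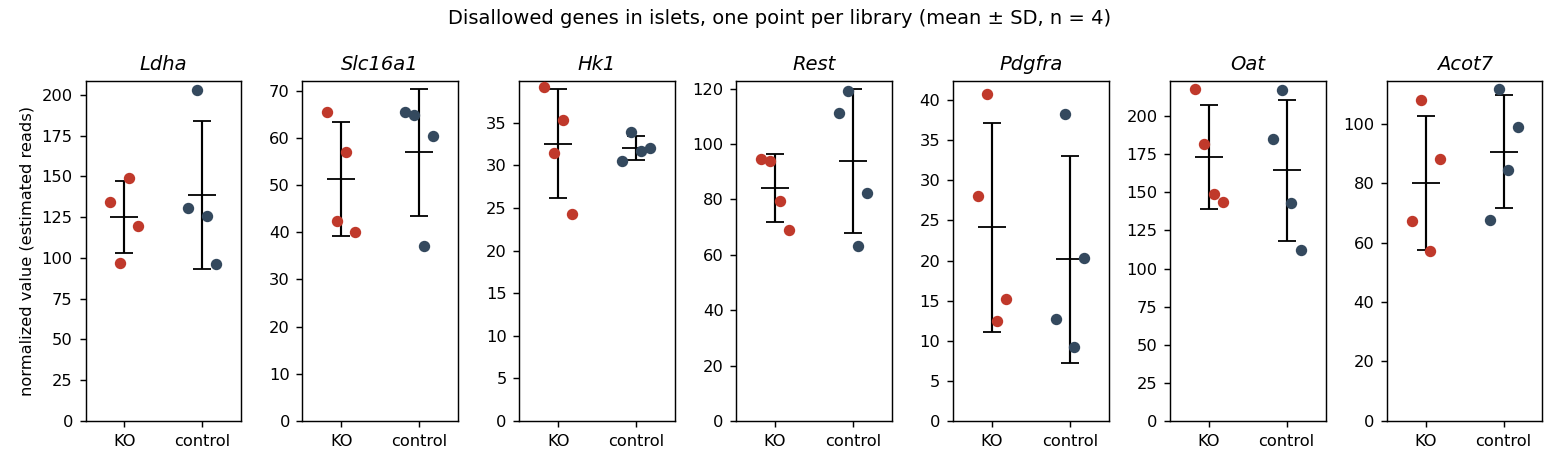
Normalized value (estimated reads divided by a size factor) of each disallowed gene in the 4 KO (red) and 4 control (dark) libraries, 1 point each in the order of replicate numbers, with the mean and SD. The groups overlap for 7 of 7 genes, and the KO and control means differ most, relative to their size, for Pdgfra (24.1 in KO and 20.1 in control islets).

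Another 22 genes proposed as disallowed in mouse islets, listed from general knowledge, were also measured in full. They lay at a median of percentile 33.0 per kilobase, between 2.14 (Smad3) and 64.4 (Cxcl12), which were named after their values were seen. Of the 22, 0 passed the test and 0 reached an unadjusted p below 0.05. Their fold changes were positive for 16 and negative for 6, with a median of 0.24. This median was 0.09 without control 3, the library poorest in mesenchymal markers, and 0.05 with the mesenchymal score as a covariate. Igf1, a growth factor of mesenchyme and macrophages in many tissues, had 41.1, 18.1, 15.3 and 24.3 in KO 1 to 4, against 26.7, 13.7, 4.97 and 7.33 in controls 1 to 4 (log2 1.05, SE 0.51, limma adjusted p = 0.503). Parp3 (log2 0.48, adjusted p = 0.617), the mitochondrial sulfurtransferase Tst (0.38, adjusted p = 0.623) and Pcolce, an extracellular enhancer of collagen processing (0.56, adjusted p = 0.643), followed.

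The 7 genes were set against markers of other cells across the 8 libraries, and 0 of 42 relations passed correction, the strongest being given here. A marker score is the mean log2 value of a list after centring each gene over the 8 libraries. The 14 markers of stellate cells and fibroblasts, each of which was measured and led by Rgs5, had scores of 0.33, 0.43, 0.05 and -0.23 in KO 1 to 4, against 0.19, 0.87, -1.15 and -0.49 in controls 1 to 4. Control 2 was the richest and control 3 the poorest in these transcripts, with a summed value of 4328 to 6137 in KO and 2938 to 7848 in control islets. Of the 14 genes 12 had a positive fold change and 0 passed the test, with a median of 0.36, which was -0.02 without control 3 and 0.62 without control 2.

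On the log2 scale, Rest correlated with this score with a Pearson r of 0.86 (exact permutation p = 0.00605) and a Spearman rho of 0.83 (p = 0.0154) over the 8 libraries. The r was 0.99 within KO and 0.97 within control islets (n = 4 each), and 0.62 without controls 2 and 3. Oat gave r = 0.77 (exact permutation p = 0.0231) and rho = 0.86 (p = 0.0107), and 0.92 without those libraries. Pdgfra gave r = 0.76 (exact permutation p = 0.0264) and rho = 0.76 (p = 0.0368), with 0.85 within KO and 0.79 within control islets (n = 4 each), and 0.45 without controls 2 and 3. Adjusted over 42 relations of 7 genes with 6 scores, the p-values of r were 0.187 for Rest and 0.222 for Oat and Pdgfra, and those of rho were 0.161, 0.15 and 0.309, so none of the 3 holds after correction. With the score as a covariate, the log2 fold changes were -0.27 for Rest, -0.02 for Oat and 0.03 for Pdgfra, and 0 of the 3 passed the test.

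Acot7 had a negative correlation with the acinar score, with r = -0.81 (exact permutation p = 0.0134, adjusted p = 0.187) and rho = -0.86 (p = 0.0107, adjusted p = 0.15) over the 8 libraries, and -0.97 without controls 2 and 3. The r was -0.97 within KO and -0.80 within control islets (n = 4 each). The acinar markers, digestive enzymes of the surrounding exocrine tissue led by Ctrb1, had scores of 0.71, -0.31, 1.07 and 0.43 in KO 1 to 4, against 0.57, -1.63, -0.77 and -0.08 in controls 1 to 4. Their summed value was 100981 to 254847 in KO and 37155 to 182016 in control islets, and 14 of 14 measured markers had a positive fold change (median 0.93, and 0.51 without control 2), though 0 passed the test. Zg16, of zymogen granules, had 3446 ± 1217 in KO and 1568 ± 1038 in control islets (log2 1.31, adjusted p = 0.437), followed by Rbpjl (1.22, adjusted p = 0.468), Cel (1.21, adjusted p = 0.511) and Amy2b (1.29, adjusted p = 0.532). Ldha correlated with the duct score (6 measured markers, summed value 1531 to 2369 in KO and 1661 to 2928 in control islets) with r = 0.83 (exact permutation p = 0.00947, adjusted p = 0.187) and rho = 0.86 (p = 0.0107, adjusted p = 0.15), and 0.73 without KO 2 and control 2. What part these cells have in the values of the 7 genes was not tested beyond the covariate fits.

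**Figure D4:**
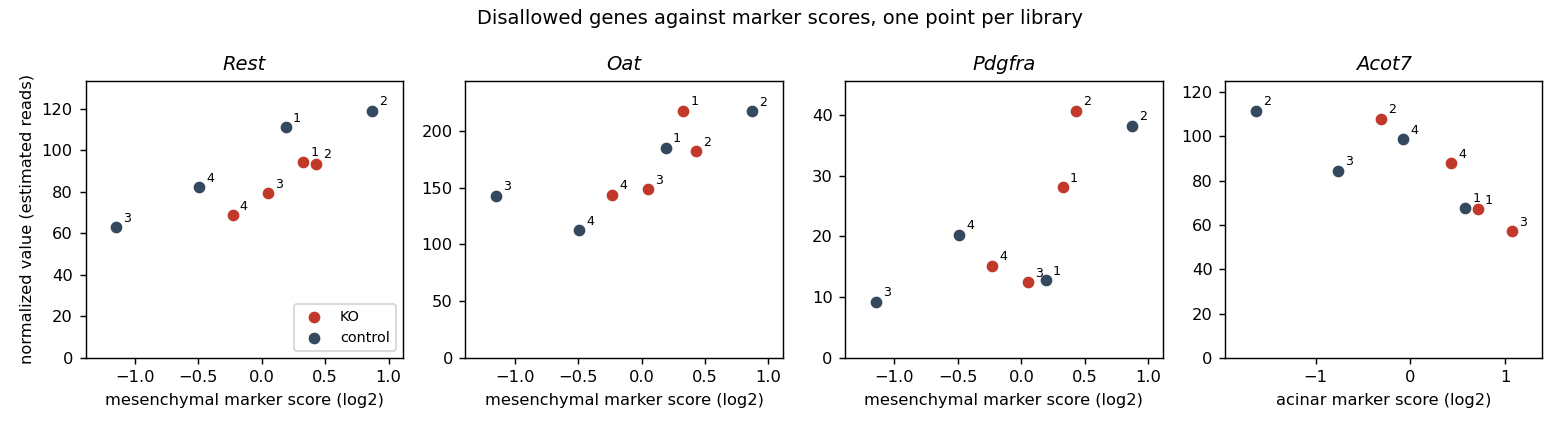
Normalized values of Rest, Oat and Pdgfra against the mesenchymal marker score and of Acot7 against the acinar marker score (both log2), 1 point per library with its replicate number, KO in red and control in dark. Rest (r = 0.86 on log2 values), Oat (r = 0.77) and Pdgfra (r = 0.76) are lowest or near lowest in control 3, where the mesenchymal score is -1.15, and Acot7 is lower where the acinar score is higher (r = -0.81).

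The remaining lists show what else was in the islets. Beta cell identity genes had 8 positive and 8 negative fold changes (median 0.03) and 0 of 16 passed the test, while 5 higher and 1 lower in KO had an unadjusted p below 0.05 (10.7% of all genes in either direction). Nkx6-1, a transcription factor of beta cells, had 8526, 9318, 10662 and 8328 in KO 1 to 4, against 6630, 6147, 6211 and 6642 in controls 1 to 4 (log2 0.52, SE 0.11, limma adjusted p = 0.116). The groups of Nkx6-1 did not overlap, and neither did those of Isl1 (0.36, limma adjusted p = 0.287) and Pdx1 (0.41, adjusted p = 0.33). Those of Mafa did (0.48, limma adjusted p = 0.367). Of all genes, 6.35% had no overlap, and these genes were named for their small p, which favours groups without overlap. Endothelial markers, led by Plvap, were positive for 10 of 11 (median 0.17, but 0.02 without control 3 and 0.06 with the mesenchymal score as a covariate), with Kdr (0.45, adjusted p = 0.352), Egfl7 (0.38, adjusted p = 0.352) and Tek (0.50, adjusted p = 0.592) first. Alpha cell markers, led by Gcg, were negative for 7 of 8 (median -0.37, and -0.22 without KO 3), among them Ttr (-0.47, adjusted p = 0.366) and Gcg itself (-0.42, adjusted p = 0.562). Leukocyte markers led by Cd74 (8 of 12 positive, median 0.03), delta and PP cell markers led by Ppy (2 of 7, -0.08), Schwann cell markers led by Mbp (5 of 8, 0.14) and red cell genes led by Hba-a2 (1 of 5, -0.22) also held 0 called genes. With single libraries left out, the medians of these last lists ran from -0.03 to 0.16 for leukocyte, -0.27 to 0.01 for delta and PP cell, 0.0031 to 0.22 for Schwann cell and -0.47 to -0.02 for red cell genes. Over the 20 lists beside the members, 0 of 221 measured genes passed the test with limma, and 22 or 9.95% had an unadjusted p below 0.05, a share close to the 10.7% of all genes.

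The genes whose pattern was most like that of each member were taken after removal of the group means, among about 11477 genes with a mean of at least 50. For Ldha these were Ubxn4, Aimp2 and Wdr53 (r = 0.98, 0.97 and 0.97), and for Slc16a1 they were Dhrs3, Prkch and Plekhg1 (0.98, 0.94 and 0.93). Hk1 was most like Adprm, Angptl2 and Plxdc2 (0.96, 0.95 and 0.95), and Rest was most like Aebp1, Vta1 and Dhx38 (0.99 each). For Pdgfra they were Pmm2, Sncg and Chl1 (0.94 each), for Oat Uhrf2, Ahnak and Osmr (0.98, 0.98 and 0.96), and for Acot7 Nostrin, Lix1 and Nefl (0.95 each). These r describe 8 libraries that also differ in depth and cell content, and they were picked as the highest of that many. Among the members, Rest and Oat (r = 0.77) and Rest and Slc16a1 (0.75) varied most alike, and Slc16a1 and Acot7 least (-0.37).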

How the data were processed

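RNA was extracted by the authors from isolated islets with an RNeasy kit, and stranded libraries were made with a KAPA kit. Per the labels and the study's methods, reads were trimmed with cutadapt (1.13), pseudoaligned with kallisto (0.46.1) to the Ensembl GRCm38 transcriptome (release not given in the sources used here) and summed per gene in sleuth. The deposited table holds, in 8 library columns, a signal per gene: estimated reads divided by a library size factor, not scaled by length. The authors' own comparison columns (effect, p-values and q-values of genes and isoforms, means and variance terms) were not used. Size factors hide the depth, which was read from the step between low values of genes with 1 transcript. Whole multiples of the step, to within 0.05 reads, made up 63.0% to 71.9% of such values, too few for a count test.

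The 16684 lines hold 15985 symbols, and 216 symbols with several lines were reduced to 1 by dropping repeats and summing distinct genes. Genes above 1 in at least 4 libraries were tested with limma (3.58.1, R 4.3.3, trended and robust prior) on log2(value + 0.5), with group as the single term, two-sided, and adjustment over all genes at 0.05. The pseudocount shrinks fold changes of low genes. Single values were compared by an exact permutation test over 70 assignments (smallest p 0.0286) in Python with scipy. Correlations with marker scores had another exact test, over all orders of the 8 libraries, which can give smaller p-values. TMM factors were computed by the published formula. Lengths and coordinates are those of GENCODE M21 (GRCm38), and 31-base words were matched to its transcripts. Symbols Ero1a and Pc were matched to Ero1l and Pcx through RefSeq synonyms.

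Groups came from the labels. The labels do not say whether libraries share litters or days, and no batch is given. p-values measure the spread between these 8 libraries. Named are the members, Sox9, partner genes, up to 4 genes of each list by smallest p, the 3 genes most like each member and the most abundant gene of each marker list. Some genes that this rule takes are not reported here. The members and lists were chosen with earlier results of these data known. Alternatives were other pseudocounts, filters and scalings, a replicate block, marker scores or depth as covariates, and leaving out each library. The fit was also run on simulated data, with independent noise drawn from the variances of the fit itself. Such data hold no differences in depth or cell content, so they cannot show how the fit handles these. Intervals from reads cover counting error only.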

Additional observations from a re-analysis of the deposited data

Results flagged for a closer look

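Slc16a1, the lactate and pyruvate transporter gene, had a value of 37.1 in control 3, far below the other controls, of which the nearest was 60.4. On the log2 scale, on which this was examined, the gap was 0.858 of the range of the 4 controls, above Dixon's critical value for 4 samples at the 95% level. On the normalized values themselves it was 0.821, below that value. Control 3 also had the lowest mesenchymal marker score (-1.15). Over the 8 libraries Slc16a1 correlated with this score with r = 0.57 (exact permutation p = 0.141, adjusted p = 0.507), and 0.03 without controls 2 and 3. The members and partners gave 32 groups of 4 libraries for this test, of which 1 passed, and chance alone gives about 1 in 20.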

How the results depend on the processing

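The 7 disallowed genes were refitted under 18 alternatives each, 126 fits in all, and 0 passed the threshold or reached an unadjusted p below 0.05. In 15 of the 126 the sign turned. For Ldha the log2 fold change was 0.034 with depth as a covariate, chosen after seeing the data, and -0.27 to 0.084 with 1 library left out. For Hk1 it was -0.062 with quantile normalization, -0.0040 with the acinar score, -0.027 with the mesenchymal score and -0.037 with depth as covariates, and -0.093 to 0.13 with 1 library left out. For Rest it was -0.30 to 0.0019 and for Oat -0.070 to 0.25 with 1 library left out, and for Oat -0.024 with the mesenchymal score. For Acot7 it was 0.16 with the acinar score. Slc16a1 and Pdgfra kept their sign throughout. Over all genes, 9 passed the test, 14 with a pseudocount of 1, 17 with quantile normalization, 3 with the acinar score and 27 with depth as a covariate, and 1 to 58 with 1 library left out (1 without control 1, KO 2, KO 3 or KO 4, 3 without control 4, 6 without KO 1 or control 3, and 58 without control 2). The cause was not tested. In the context lists 0 genes passed with any library left out. A replicate block called 6 genes over all genes and 0 members. After removal of the group means, same-numbered libraries correlated across genes with r between -0.16 and 0.07. These r gave no sign of pairing by number, but they cannot tell whether libraries share litters or days. The reads of the lowest member, 7.67 to 58.1 for Pdgfra, limit its precision.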
